A study of Mus musculus with 25 samples.

Results

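The genes described here encode the machinery that brings new proteins into and across the endoplasmic reticulum (ER) membrane. They are 38 gene symbols chosen by name: 6 of the signal recognition particle (SRP), 3 of its receptor, 6 of the translocon, 2 TRAM genes, 4 of the translocon-associated protein complex (TRAP), 5 of signal peptidase, 9 of the ER membrane protein complex (EMC) and 3 of the GET pathway. The expression tables listed 37 of them among the 18440 genes that all tables shared. Srpra was not listed, but it is a current name of the gene listed as Srpr, so both symbols refer to 1 gene. Of the 37, 36 were tested among 13117 genes, and Tram2, at 0.17 to 0.97 FPKM, was too low to test.

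Most secreted and membrane proteins begin with a signal sequence. SRP binds that sequence as it leaves the ribosome and carries the ribosome to the SRP receptor on the ER, where the chain is passed to the Sec61 channel. TRAP and TRAM help particular chains enter, Sec62 and Sec63 serve chains that enter after or late in translation, and signal peptidase cuts the signal sequence off inside the ER. The EMC inserts membrane segments, among them those of many multipass proteins, and in mice and flies it is known to be needed for rhodopsin in photoreceptors. The GET pathway delivers proteins anchored by a segment at their tail.

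Bulk RNA sequencing was done on retinas of wild-type C57BL/6J mice injected in the vitreous of both eyes at postnatal day 30. The groups, of 5 libraries each, were tunicamycin, which stops N-glycosylation at its start and causes ER stress, Ceapin-A7, an inhibitor of the ER stress sensor ATF6, vehicle set 2, AA147, a compound that activates ATF6, and vehicle set 1. The compounds were injected at 10 µM, 1 µL per eye. The vehicle is labelled PBS but described in the protocol as saline with 0.05 to 0.1% dimethyl sulfoxide. The compound libraries carry a time of 24 h and the vehicle libraries none, while the series names 24 h, 3 d and 7 d, so collection time and treatment cannot be told apart. The labels do not say whether libraries of 1 group are different animals, and p-values then rest on a spread that may be technical. Tunicamycin and Ceapin-A7 were compared with vehicle set 2 and AA147 with vehicle set 1, because the tables of each family list the same genes (19102 and 18676).

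Depth could only be estimated, at 15.3 to 25.3 M fragments per library, and for a transcript of 2 kb a level of 1 FPKM stands for some 47.1 fragments at the median. Each library had 12582 to 12870 genes at 1 FPKM or more. All 6 rod markers were listed, with a summed level of 12942 to 22044 FPKM in the 25 libraries. The protocol removes cornea and lens, yet the summed level of 12 lens markers was 16339, 7454, 77.4, 232 and 7023 FPKM in tunicamycin libraries 1 to 5, 11015, 155, 916, 162 and 5408 in the Ceapin-A7 libraries and 6636, 2143, 72.2, 2112 and 84.3 in vehicle set 2. The summed level of 4 Y-linked genes, a mark of male tissue, was 45.9 to 76.4 FPKM in the tunicamycin libraries. In vehicle set 2, 4 of the 5 libraries lay at or below 0.06 FPKM, as did 2 Ceapin-A7 libraries. Sex and tunicamycin can therefore not be fully told apart. AA147 libraries 4 and 5 had 0.31 and 0.17 FPKM and the other AA147 libraries 70.2 to 77.1 FPKM, against 56.6 to 79 FPKM in vehicle set 1. The 5 endothelial markers summed to 14.9 to 22.1 FPKM with tunicamycin and to 36.7 to 51.4 FPKM in vehicle set 2.

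Tunicamycin was the positive control for ER stress. Of the translocation genes tested, 18 of 36 rose in the tunicamycin retinas relative to vehicle set 2 and 0 fell, whereas 5.89% of all tested genes rose and 2.81% fell, 8.7% together (limma, Benjamini-Hochberg adjusted p under 0.05). The 18 belonged to the SRP, its receptor, the translocon, TRAM1, TRAP and signal peptidase. The 12 EMC and GET genes among the 36 missed the threshold. The median change on the log2(FPKM + 1) scale was 0.21 over the 36 genes, against 0.01 over all tested genes, and changes ranged from -0.14 for Emc10 to 0.63 for Sec61b. In whole retina, a change in RNA per cell and a change in the share of a cell type cannot be told apart. The model pooled the spread of all 5 groups. Fitted to tunicamycin and vehicle set 2 alone, 1 of the 18, Ssr4, stayed past the threshold, although all 18 changes were unaltered in size. Adding the Y-linked level to the model left 12 of the 18 called, and fitting the 3 groups of the table family alone left 13.

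**Figure D1:**
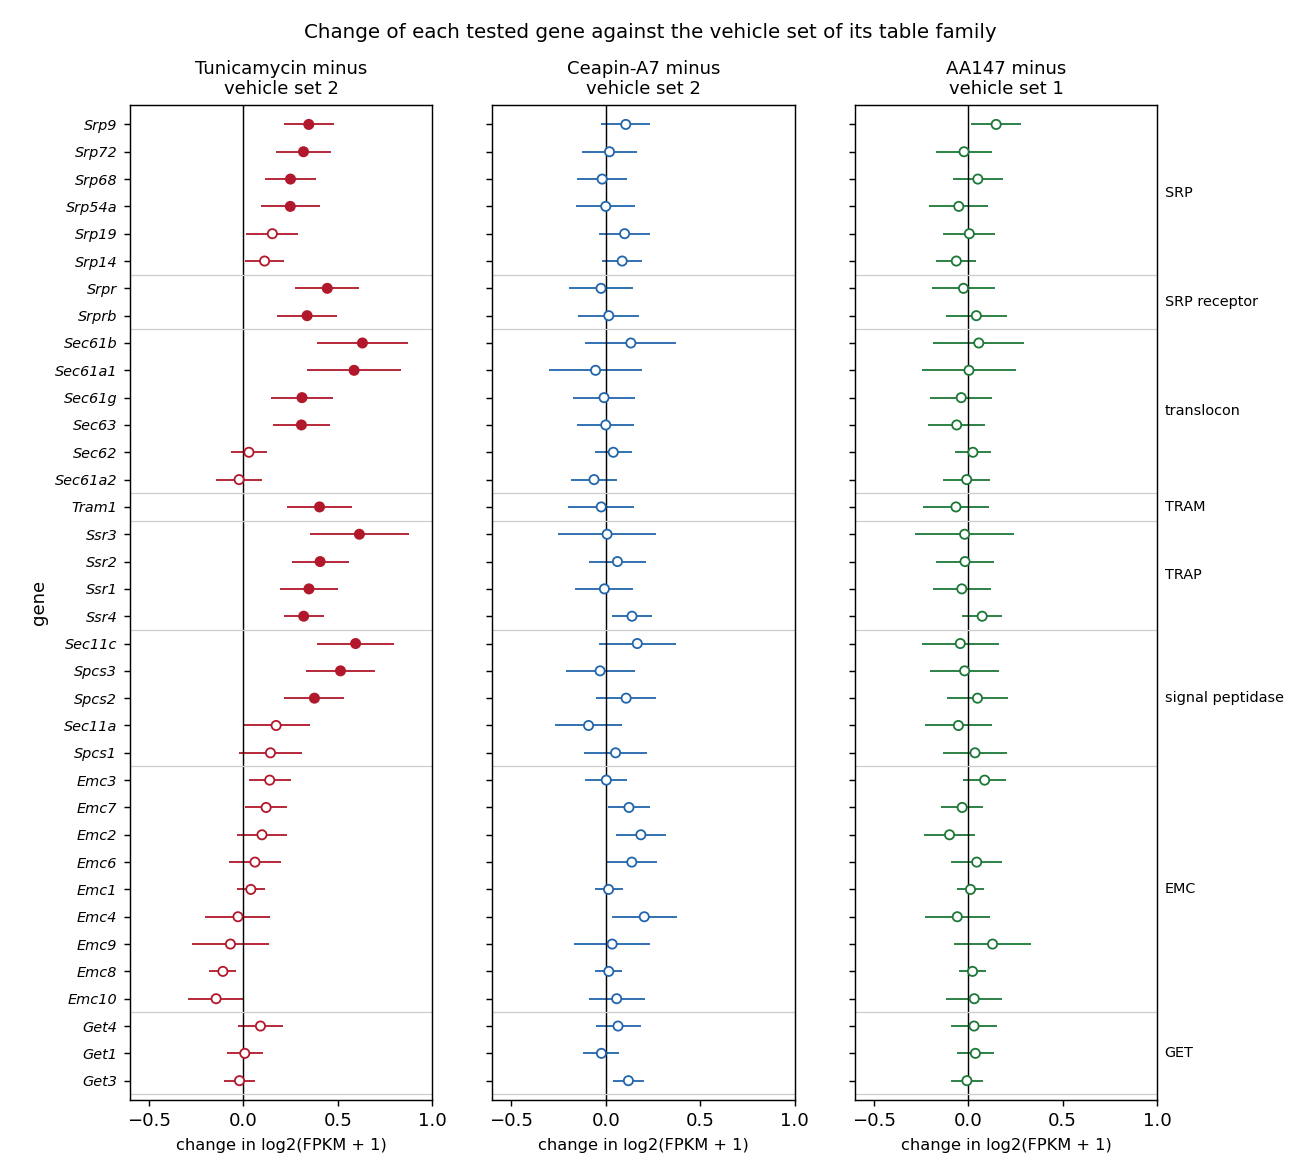
Change of each of the 36 tested genes in log2(FPKM + 1), with bars for the 95% confidence interval, for tunicamycin minus vehicle set 2, Ceapin-A7 minus vehicle set 2 and AA147 minus vehicle set 1. Filled points passed the limma threshold; the 18 filled points are all in the tunicamycin panel and all lie above the EMC and GET rows.

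Of the 6 SRP genes, 4 rose (Srp9, Srp72, Srp68 and Srp54a), with a median change of 0.25 over the 6. Srp9, which with Srp14 forms the part that pauses translation, stood at 65.7, 48.4, 49.1, 52.3 and 49.8 FPKM in tunicamycin libraries 1 to 5, against 39.2, 44.3, 39.6, 41.4 and 41.9 FPKM in vehicle set 2. All 5 tunicamycin values lay above all 5 vehicle values, and the change was 0.35 ± 0.06 (SE, limma adjusted p = 0.00153). Srp72, which with Srp68 forms a heterodimer on the SRP RNA, was at 55.6, 39.3, 34.9, 40.4 and 40.9 FPKM with tunicamycin, against 31.5, 34.02, 32.8, 34.2 and 33.7 FPKM in vehicle set 2. Srp68 was at 56.2, 41.2, 39.1, 42.98 and 39.4 FPKM with tunicamycin, against 35.99, 34.7, 35.9, 38.4 and 36.6 FPKM in vehicle set 2. Neither pair of groups overlapped, and the changes were 0.32 ± 0.07 (SE, limma adjusted p = 0.00711) for Srp72 and 0.25 ± 0.07 (SE, limma adjusted p = 0.0179) for Srp68. Srp54a, the subunit that binds the signal sequence, changed by 0.25 ± 0.07 (SE, limma adjusted p = 0.0401). It has near-identical neighbours, Srp54b and Srp54c, between which reads can be split. Its call held under 10 of 24 alternative settings. It ended without tunicamycin library 1 or 2 or any of vehicle libraries 1 to 4. Median-ratio scaling, quantile normalization, array weights and the Y-linked covariate, among others, also ended it. Srp14 and Srp19, which helps SRP54 assemble on the RNA, had changes of 0.11 ± 0.05 and 0.15 ± 0.07 and did not pass (adjusted p = 0.169 and 0.149).

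Both receptor subunits rose. Srpr, the subunit that docks SRP, was at 65.7, 45.8, 38.2, 49.1 and 48.04 FPKM in the tunicamycin libraries, against 34.6, 33.96, 36.4, 38.8 and 33.8 FPKM in vehicle set 2, a change of 0.45 ± 0.08 (SE, limma adjusted p = 0.0016). Srprb, which anchors the receptor in the membrane, was at 50.6, 36.9, 30.4, 40.7 and 39.4 FPKM with tunicamycin, against 31.96, 30.97, 30.7, 31.4 and 28.6 FPKM in vehicle set 2, a change of 0.34 ± 0.08 (SE, limma adjusted p = 0.00868). For both genes 4 tunicamycin libraries lay above every vehicle library, and tunicamycin library 3 lay among them.

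Among the 6 translocon genes 4 rose, all 3 main channel subunits and Sec63, with a median change of 0.31. Sec61b, the small beta subunit, had 102, 68.2, 61.8, 67.99 and 76.1 FPKM in tunicamycin libraries 1 to 5, against 48.6, 56.3, 49.3, 39.7 and 44.96 FPKM in vehicle set 2, without overlap and with a change of 0.63 ± 0.12 (SE, limma adjusted p = 0.00162). Sec61a1, which forms the pore, had 74.2, 46.3, 32.2, 45.8 and 45.95 FPKM with tunicamycin, against 31.4, 28.9, 30.4, 35.1 and 29.9 FPKM in vehicle set 2. Its tunicamycin library 3 lay inside the vehicle range, and the change was 0.59 ± 0.12 (SE, limma adjusted p = 0.00356). Sec61g, the gamma subunit, had 76.3, 54.1, 69.2, 62.1 and 68.1 FPKM with tunicamycin, against 50.3, 60.4, 50.8, 51.3 and 51.03 FPKM in vehicle set 2, where library 2 stood above the other 4. Its change was 0.31 ± 0.08 (SE, limma adjusted p = 0.0157), and the call ended without tunicamycin library 1, at a change of 0.26. Sec63, a membrane J protein that recruits the chaperone BiP to the channel, changed by 0.31 ± 0.07 (SE, limma adjusted p = 0.0107), with no overlap between the groups, and by 0.20 without tunicamycin library 1. Its partner Sec62 changed by 0.03 ± 0.05 (adjusted p = 0.738) and did not pass.

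Sec61a2 encodes a second form of the pore. It stood at 18.5, 22.6, 21.9, 21.4 and 22.05 FPKM with tunicamycin, against 21.6, 21.3, 20.7, 21.7 and 22.6 FPKM in vehicle set 2, a change of -0.02 ± 0.06 (adjusted p = 0.86). The difference Sec61a1 minus Sec61a2 in log2(FPKM + 1) was 1.95, 1.00, 0.54, 1.06 and 1.03 in the tunicamycin libraries, against 0.52, 0.42, 0.54, 0.67 and 0.39 in vehicle set 2. Its mean was 1.12 with tunicamycin and 0.51 in vehicle set 2, a shift of 0.61 towards Sec61a1. The pair was chosen with these changes known, so the shift is a description and no test of it is given. Tunicamycin libraries 1, 2, 4 and 5 were above all vehicle libraries and library 3 was not. Without tunicamycin library 1 the shift was 0.40. The same shift was 0.01 for both Ceapin-A7 and AA147, each against its own vehicle set.

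Tram1, a membrane protein beside the channel, rose as well. It was at 38.9, 28.2, 22.3, 27.8 and 26.3 FPKM with tunicamycin, against 21.1, 22.3, 19.8, 22.2 and 20.2 FPKM in vehicle set 2, a change of 0.40 ± 0.08 (SE, limma adjusted p = 0.00417). The lowest tunicamycin value, 22.34 FPKM in library 3, was just above the highest vehicle value, 22.32 FPKM.

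All 4 TRAP subunits rose, with a median change of 0.38. Ssr3, the gamma subunit, had the largest change of the 4 and stood at 149.8, 91.4, 66.1, 87.6 and 87.4 FPKM with tunicamycin, against 63.8, 69.2, 55.05, 59.1 and 55.6 FPKM in vehicle set 2. Tunicamycin library 3 fell within the vehicle range, and the change was 0.61 ± 0.13 (SE, limma adjusted p = 0.00374). Ssr2, the beta subunit, was at 155, 119.6, 107, 136 and 125 FPKM with tunicamycin, against 100.4, 99.9, 99.4, 94.5 and 86.2 FPKM in vehicle set 2. Ssr1, the alpha subunit, was at 50.1, 36.4, 31.1, 37.95 and 37.6 FPKM with tunicamycin, against 30.8, 30.4, 28.9, 30.9 and 27.98 FPKM in vehicle set 2. Neither overlapped, and the changes were 0.41 ± 0.07 (SE, limma adjusted p = 0.00126) for Ssr2 and 0.35 ± 0.07 (SE, limma adjusted p = 0.00511) for Ssr1. Ssr4, the delta subunit, varied least of the 4 among the tunicamycin libraries, at 71.2, 60.4, 65.3, 66.02 and 65.1 FPKM, against 53.4, 52.3, 52.2, 56.00 and 47.8 FPKM in vehicle set 2. Its change was 0.32 ± 0.05 (SE, limma adjusted p = 0.000372), the smallest adjusted p of the 36 genes. The call stood under all 24 alternative settings, the Y-linked covariate among them. Ssr4 lies on the X chromosome, and the Y-linked level differed between these groups. With Ceapin-A7, Ssr4 changed by 0.14 ± 0.05 (SE, limma adjusted p = 0.324). Tunicamycin minus Ceapin-A7 was 0.18 ± 0.05 (SE, limma adjusted p = 0.0222), a call kept under 18 of 21 alternatives.

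Signal peptidase had 3 of its 5 genes higher, Sec11c, Spcs3 and Spcs2, with a median change of 0.38 over the 5. Sec11c, 1 of 2 alternative catalytic subunits, was at 85.8, 54.7, 53.7, 63.1 and 52.9 FPKM with tunicamycin, against 35.9, 45.3, 43.8, 40.7 and 35.4 FPKM in vehicle set 2, without overlap and with a change of 0.59 ± 0.10 (SE, limma adjusted p = 0.000515). Spcs3, an accessory subunit needed for cleavage, had 20.5, 13.6, 11.8, 15.2 and 14.6 FPKM with tunicamycin, against 10.2, 10.97, 9.18, 10.7 and 9.78 FPKM in vehicle set 2, a change of 0.52 ± 0.09 (SE, limma adjusted p = 0.000782). Spcs2, an accessory subunit next to the channel, had 80.6, 54.8, 51.1, 59.5 and 57.4 FPKM with tunicamycin, against 45.7, 47.1, 45.4, 46.4 and 45.1 FPKM in vehicle set 2, a change of 0.38 ± 0.08 (SE, limma adjusted p = 0.00374). All 3 genes were higher in every tunicamycin library than in any vehicle library. Spcs1, the other accessory subunit, changed by 0.14 ± 0.08 and did not pass (adjusted p = 0.282).

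Sec11a, the other catalytic subunit, was at 37.3, 28.5, 25.1, 30.8 and 31.1 FPKM with tunicamycin, against 24.04, 26.4, 26.8, 28.7 and 28.05 FPKM in vehicle set 2, with overlap and a change of 0.17 ± 0.09 (SE, limma adjusted p = 0.21). Sec11c minus Sec11a in log2(FPKM + 1) was 1.18, 0.92, 1.07, 1.01 and 0.75 in the tunicamycin libraries, against 0.56, 0.76, 0.69, 0.49 and 0.32 in vehicle set 2. The lowest tunicamycin library lay just below the highest vehicle library and the other 4 lay above all of them. The mean was 0.98 with tunicamycin and 0.56 in vehicle set 2, a shift of 0.42, given without a test for the same reason. For Ceapin-A7 the shift was 0.26 and for AA147 it was 0.01.

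**Figure D2:**
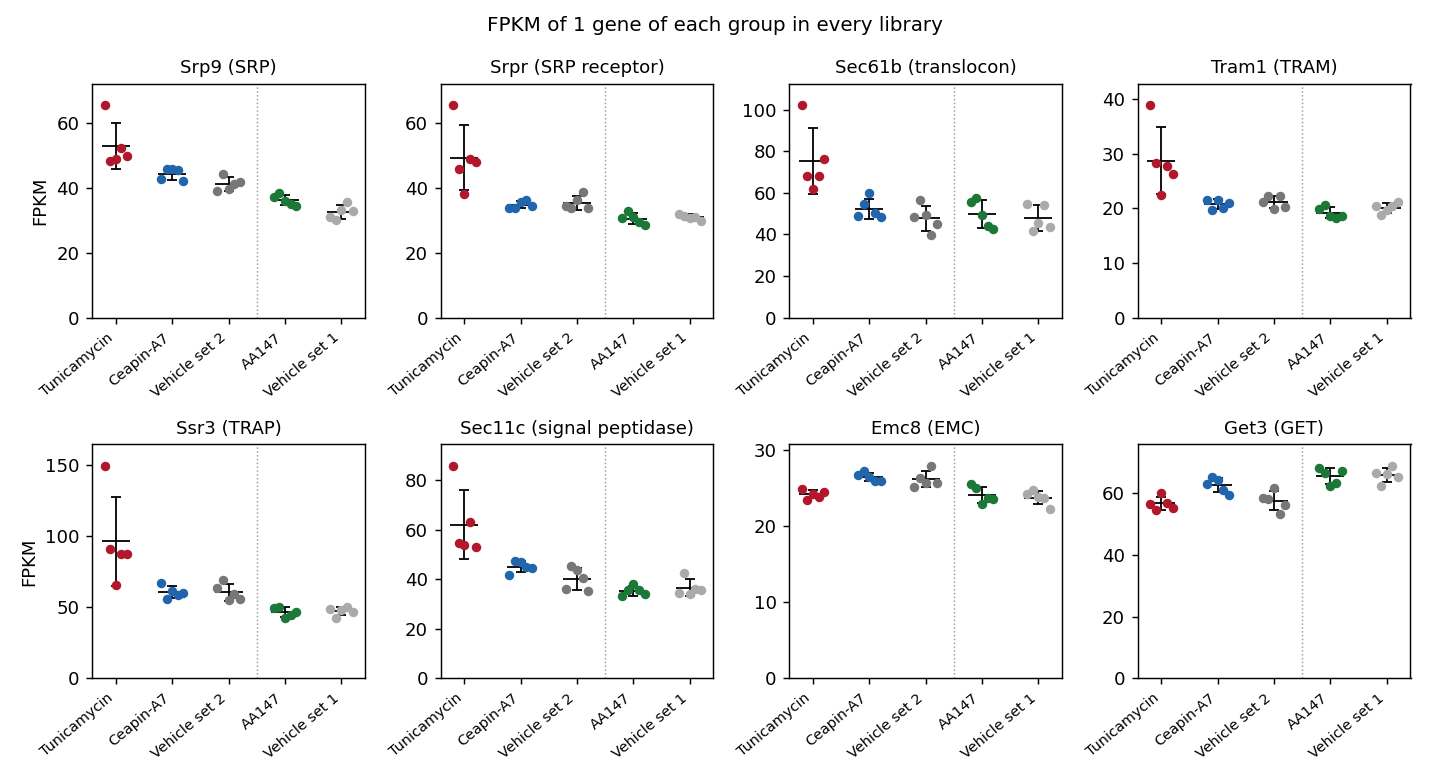
FPKM of 1 gene from each of the 8 gene groups in all 25 libraries, with the mean and SD as black marks; the dotted line parts the 2 table families, between which levels are not compared. Srp9, Sec61b, Tram1 and Sec11c are higher in all 5 tunicamycin libraries than in vehicle set 2, while Get3 overlaps and Emc8 lies slightly below, at 23.5 to 24.9 FPKM with tunicamycin and 25.2 to 28.0 FPKM in vehicle set 2.

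No EMC gene passed with tunicamycin. The 9 tested subunits had 0 calls, where 8.7% of all tested genes were called in either direction. Their median change was 0.04, with a range from -0.14 to 0.14. For 3 of them the unadjusted limma p was under 0.05 (24.6% of all tested genes). Emc3, which forms the insertase core with Emc6, changed by 0.14 ± 0.05 (SE, limma adjusted p = 0.107), and Emc6 by 0.06 ± 0.07. Emc1, the large subunit with a domain in the ER lumen, changed by 0.04 ± 0.04, and its 95% interval of -0.03 to 0.11 lay below the change of every gene that rose. Emc7 and Emc10, subunits on the lumen side, changed by 0.12 ± 0.05 and -0.14 ± 0.07. Emc8, a cytosolic subunit singled out after its values were seen, was at 24.9, 23.5, 24.3, 23.9 and 24.6 FPKM with tunicamycin, against 25.2, 26.4, 25.6, 27.97 and 25.7 FPKM in vehicle set 2. Every tunicamycin value lay below every vehicle value, as for 1.24% of all tested genes, and the change of -0.11 ± 0.04 (SE, limma adjusted p = 0.0521) fell just short of the threshold. Under median-ratio scaling, quantile normalization or no filter on low values it passed as lower.

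The 3 GET genes of the set had changes of under 0.10 and did not pass. Get3, the ATPase that carries tail-anchored proteins, changed by -0.02 ± 0.04, Get1, its receptor subunit, by 0.01 ± 0.05 and Get4, of the complex that loads it, by 0.09 ± 0.06 (adjusted p = 0.803, 0.939 and 0.343). All 3 overlapped between the groups. Caml (Camlg), the receptor partner of Get1 and not among the 36 genes, did pass: it was at 40.5, 36.5, 38.5, 37.4 and 35.96 FPKM with tunicamycin, against 33.5, 32.1, 37.01, 34.2 and 32.5 FPKM in vehicle set 2. The groups overlapped through vehicle library 3, and the change was 0.15 ± 0.04 (SE, limma adjusted p = 0.0313). Against Ceapin-A7, at 30.7 to 33.6 FPKM, its difference was 0.20 ± 0.04 (SE, limma adjusted p = 0.00529), without overlap. Whether the EMC and GET genes differ from the others as groups was not tested.

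Taking the 24 genes from SRP to signal peptidase as 1 set, grouped after their values were seen, 18 rose and their median change was 0.33, while the 12 EMC and GET genes had 0 calls and a median of 0.02. Of all tested genes 5.89% rose and 2.81% fell, so 0 calls among 12 genes lies near that share. Of the 24, 12 were higher in all 5 tunicamycin libraries than in any library of vehicle set 2, as were 2.81% of all tested genes.

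The tunicamycin libraries differed in size of response. All 18 genes that rose had their highest value in library 1, and 14 had their lowest in library 3, 3 in library 2 and 1 in library 5. The mean over the 18 genes, relative to the mean of vehicle set 2, was 0.81, 0.32, 0.17, 0.39 and 0.36 in log2(FPKM + 1) in libraries 1 to 5. The vehicle libraries, set against their own mean, lay at -0.05 to 0.06. The 18 were picked for being higher with tunicamycin, so that gap was fixed in advance. Only the differences among the tunicamycin libraries are described. Hspa5, which encodes BiP, the ER chaperone that pulls chains through the channel and rises with ER stress, was at 1513, 495, 229, 581 and 427 FPKM in the same libraries, against 110.2, 109.9, 106, 138 and 162 FPKM in vehicle set 2. It too was highest in library 1 and lowest in library 3. The 12 EMC and GET genes had means of -0.06, -0.06, 0.12, 0.05 and 0.02, with the highest in library 3. Without tunicamycin library 1, 16 of the 18 genes remained called, and Sec61g and Srp54a were lost. The change of Srp68 was then 0.16 and that of Srp54a 0.16.

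**Figure D3:**
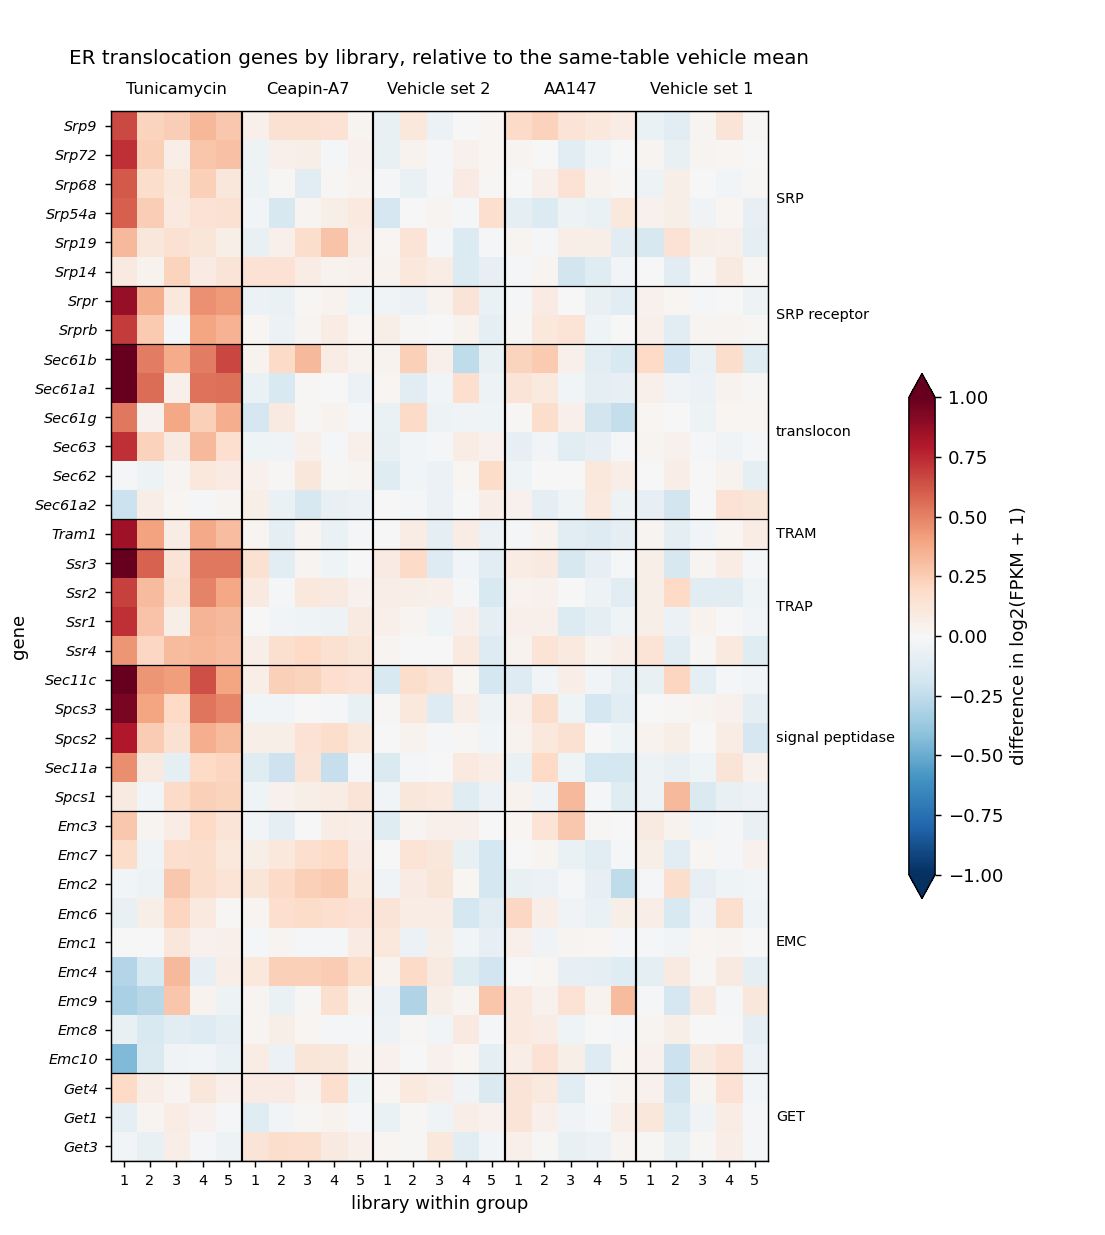
Difference in log2(FPKM + 1) of each tested gene in each of the 25 libraries from the mean of the vehicle set of the same table family, with rows ordered by gene group and colours limited to between -1 and 1. Red concentrates in the tunicamycin columns of the SRP to signal peptidase rows, darkest in library 1 and faintest in library 3. Pale red also appears in EMC rows, as in tunicamycin library 3 for Emc4 (0.325) and Emc9 (0.275). In that library the mean was 0.145 over the 9 EMC genes and 0.147 over the 24 genes from SRP to signal peptidase.

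Other measures also differed among these libraries. Beside the lens marker sums of 16339, 7454, 77.4, 232 and 7023 FPKM in tunicamycin libraries 1 to 5, the means over the 24 genes were 0.64, 0.25, 0.15, 0.33 and 0.30. Library 1 was highest and library 3 lowest in both. Between them the orders differed, with library 2 above library 4 in lens sum and below it in mean. Beside the sums of 11015, 155, 916, 162 and 5408 FPKM in the Ceapin-A7 libraries, the means were 0.003, 0.01, 0.07, 0.04 and 0.03. The 4 Muller glia markers summed to 451, 855, 1060, 1189 and 1103 FPKM with tunicamycin, against 881, 873, 1313, 451 and 598 FPKM in vehicle set 2. The 3 plasma cell markers listed, of a cell type rich in this machinery, summed to 6.54 to 10.1 FPKM with tunicamycin and 5.41 to 7.57 FPKM in vehicle set 2. The 4 pericyte markers summed to 8.2 to 10.7 FPKM with tunicamycin and 23.8 to 27.8 FPKM in vehicle set 2, without overlap, as for the endothelial markers. The 8 pigment epithelium markers summed to 85.8, 174, 235, 255 and 246 FPKM in tunicamycin libraries 1 to 5, lowest in library 1, and to 235 to 359 FPKM in vehicle set 2. The part of the lens, Muller glia, endothelial, pericyte, pigment epithelium and plasma cell markers in the results was not tested. Without vehicle libraries 4 and 5, which were lowest in rod and Muller glia markers of their set, 17 of the 18 genes remained called.

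**Figure D4:**
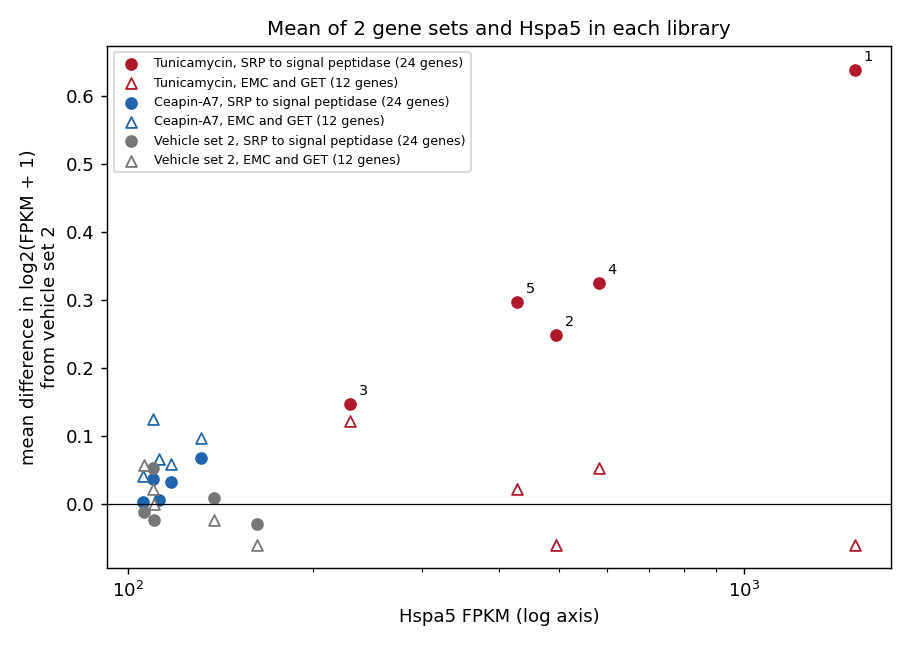
Mean difference in log2(FPKM + 1) from vehicle set 2 of the 24 genes from SRP to signal peptidase (filled circles) and of the 12 EMC and GET genes (open triangles), against the Hspa5 level of the same library on a log axis; numbers mark the tunicamycin libraries. The circles of tunicamycin libraries 1 to 5 lie at 0.64, 0.25, 0.15, 0.33 and 0.30, and the triangles lie between -0.06 and 0.13 in all 3 groups.

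Among 32 other tested genes of ER entry, 9 rose with tunicamycin and 0 fell, with a median change of 0.10. Of all tested genes 5.89% rose and 2.81% fell, with a median change of 0.01. This list, too, was chosen with earlier results of these data known. The largest was that of Hspa5, at 2.10 ± 0.28, followed by Hyou1, a chaperone that exchanges the nucleotide of BiP, at 1.57 ± 0.25. Rrbp1, a ribosome-binding protein of the rough ER, rose by 0.76 ± 0.12. Ostc, Krtcap2 and Tmem258, subunits of the oligosaccharyltransferase that sits at the channel, rose by 0.69 ± 0.12, 0.56 ± 0.14 and 0.40 ± 0.08. H13, the signal peptide peptidase that clears cut signal sequences, rose by 0.50 ± 0.10, and Sil1, another exchange factor of BiP, by 0.23 ± 0.05. Sil1 had a change of 0.23 ± 0.05 with Ceapin-A7 as well (unadjusted p = 0.00015, limma adjusted p = 0.23), and tunicamycin minus Ceapin-A7 was -0.002 ± 0.05. The other of the 9 was Caml, named after its values were seen. Naca and Btf3, which form a complex that keeps SRP from ribosomes without a signal sequence, changed by 0.07 ± 0.07 and 0.12 ± 0.07 and did not pass.

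Since many of these genes moved together, the DNA before their starts was searched for motifs read by ATF6, XBP1 and related factors. RefSeq windows of 250 bases before to 50 after the start were at hand for 28 of the 37 listed genes, 30 windows in all (build GRCm38.p6, not the build the authors name). Sec61a1, Ssr2, Srp68, Spcs3, Sec11c and Tram1, which rose, had no window, nor did Srp19, Emc2 and Emc8. On both strands, 0 of the 30 windows held the ER stress response element ERSE (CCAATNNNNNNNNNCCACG), ERSE-II (ATTGGNCCACG) or the core TGACGTGG of the unfolded protein response element. These stood in 0.119%, 0.0365% and 0.676% of all 32851 windows. At such low shares most sets of 30 windows would hold none, so the 0 does not set these genes apart. CCACG, which ERSE, ERSE-II and CCACGT all contain, as does TGACGTGG on its other strand, was found in 60% of the gene windows, in 32.8% of all windows and in 46.1% of those of the tested genes. CCACGT was found in 26.7% of the gene windows, in 8.31% of all windows and in 10.9% of those of the tested genes. It stood near Ssr3, Srprb, Sec63 and Ssr1, which rose, and near Spcs1, Get3 and Get4, which did not pass. CCAAT was in 33.3% of the gene windows and in 37.4% of all. A match shows letters and not binding.

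The 250 bases before the start are printed for the 4 genes with CCACGT that rose and, for contrast, for Spcs1, which has it and did not pass; capitals mark CCACGT. They lie at chr3:65392554-65392803 on the minus strand (Ssr3), chr9:103202066-103202315 on the minus strand (Srprb), chr10:42761246-42761495 on the plus strand (Sec63), chr13:37994209-37994458 on the minus strand (Ssr1) and chr14:31001667-31001916 on the minus strand (Spcs1).
Ssr3: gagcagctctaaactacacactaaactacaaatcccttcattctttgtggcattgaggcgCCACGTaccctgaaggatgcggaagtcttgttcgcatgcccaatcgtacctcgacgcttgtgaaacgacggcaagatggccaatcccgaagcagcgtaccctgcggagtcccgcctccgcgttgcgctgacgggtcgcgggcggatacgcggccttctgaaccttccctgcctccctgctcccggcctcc
Srprb: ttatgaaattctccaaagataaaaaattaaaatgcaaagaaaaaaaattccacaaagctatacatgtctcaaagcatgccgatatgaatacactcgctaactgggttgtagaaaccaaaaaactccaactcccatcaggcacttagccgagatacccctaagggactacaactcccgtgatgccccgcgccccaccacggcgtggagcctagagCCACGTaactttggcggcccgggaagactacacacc
Sec63: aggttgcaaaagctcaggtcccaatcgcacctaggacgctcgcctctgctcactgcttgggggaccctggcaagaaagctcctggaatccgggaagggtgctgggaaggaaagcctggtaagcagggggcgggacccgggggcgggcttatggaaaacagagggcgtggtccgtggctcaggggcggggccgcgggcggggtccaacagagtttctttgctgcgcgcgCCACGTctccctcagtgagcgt
Ssr1: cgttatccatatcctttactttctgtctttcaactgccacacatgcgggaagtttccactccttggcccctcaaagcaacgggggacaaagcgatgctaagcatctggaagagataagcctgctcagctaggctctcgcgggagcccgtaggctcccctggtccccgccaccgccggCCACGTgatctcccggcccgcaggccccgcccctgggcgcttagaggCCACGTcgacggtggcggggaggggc
Spcs1: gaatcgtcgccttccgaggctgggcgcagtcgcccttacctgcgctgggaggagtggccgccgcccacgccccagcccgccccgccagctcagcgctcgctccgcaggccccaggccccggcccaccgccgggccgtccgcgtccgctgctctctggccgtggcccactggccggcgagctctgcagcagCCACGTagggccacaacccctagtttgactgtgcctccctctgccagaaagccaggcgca
The motif begins 190 bases before the start in Ssr3, 36 in Srprb, 22 in Sec63, 73 and 26 in Ssr1, which has it in 2 places, and 60 in Spcs1. Changes with tunicamycin were 0.61, 0.34, 0.31, 0.35 and 0.14 in the same order.

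Ceapin-A7 was compared with vehicle set 2 to see how an ATF6 inhibitor given alone moved these genes. None of the 36 genes passed, as none of the 13117 tested genes did (0% called; 12.3% had an unadjusted p under 0.05, and 6 of the 36 genes did). The median change was 0.03, and changes ranged from -0.09 ± 0.09 for Sec11a to 0.20 ± 0.08 for Emc4, a subunit within the membrane. Emc4 was at 79.1, 86.5, 86.6, 87.4 and 83.5 FPKM with Ceapin-A7, against 75.2, 83.7, 78.00, 67.3 and 64.00 FPKM in vehicle set 2, with overlap (limma adjusted p = 0.344). Emc2, a cytosolic subunit, was at 23.5, 24.8, 25.7, 26.2 and 23.4 FPKM with Ceapin-A7, against 21.02, 22.9, 23.5, 21.9 and 18.97 FPKM in vehicle set 2, also with overlap and a change of 0.19 ± 0.07 (SE, limma adjusted p = 0.304). Spcs2 was the 1 gene whose groups did not overlap, at 47.9, 47.8, 50.9, 51.96 and 49.5 FPKM with Ceapin-A7, against 45.7, 47.1, 45.4, 46.4 and 45.1 FPKM in vehicle set 2, as 0.968% of all genes were in that direction and 0.48% in the other. Its change was 0.11 ± 0.08 (SE, limma adjusted p = 0.583). The 95% intervals of the 36 genes together spanned -0.30 to 0.38. With single libraries of Ceapin-A7 or vehicle set 2 left out, 0 of the 36 passed each time.

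AA147 was compared with vehicle set 1 to see how an ATF6 activator moved them. Again 0 of the 36 genes passed, with 0% of all tested genes called and 1.88% with an unadjusted p under 0.05. The median change was -0.001, and changes ranged from -0.10 ± 0.07 for Emc2 to 0.15 ± 0.06 for Srp9. Srp9 was at 37.4, 38.4, 35.98, 35.2 and 34.5 FPKM with AA147, against 31.1, 30.2, 33.3, 35.8 and 32.9 FPKM in vehicle set 1, with overlap (limma adjusted p = 1), and was the 1 gene of the 36 with an unadjusted p under 0.05, 0.0283. Emc9, a relative of Emc8, was at 21.6, 20.9, 22.5, 20.8 and 25.4 FPKM with AA147, against 19.9, 17.9, 21.5, 19.99 and 21.9 FPKM in vehicle set 1, a change of 0.13 ± 0.10 (SE, limma adjusted p = 1). Sec61b and Ssr3, which had the largest changes with tunicamycin, changed by 0.06 ± 0.12 and -0.02 ± 0.13, with 95% intervals of -0.19 to 0.30 and -0.28 to 0.24. The intervals of the 36 genes spanned -0.28 to 0.33. Hspa5 was at 147, 163, 131, 114 and 145 FPKM with AA147, against 187, 182, 136, 141 and 135 FPKM in vehicle set 1.

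Set directly against Ceapin-A7, which shares its tables, tunicamycin had 19 of the 36 genes higher and 2 lower, against 8.83% and 4.48% of all tested genes. The 19 were the 18 that rose over vehicle set 2 and Sec11a, at 37.3, 28.5, 25.1, 30.8 and 31.1 FPKM with tunicamycin, against 24.6, 22.99, 29.3, 22.6 and 26.3 FPKM with Ceapin-A7, with overlap and a difference of 0.27 ± 0.09 (SE, limma adjusted p = 0.0425). Emc8 was lower in every tunicamycin library, at 24.9, 23.5, 24.3, 23.9 and 24.6 FPKM, against 26.7, 27.3, 26.5, 25.99 and 25.96 FPKM with Ceapin-A7, a difference of -0.12 ± 0.04 (SE, limma adjusted p = 0.0207). Get3 was at 56.3, 54.3, 59.96, 56.8 and 55.2 FPKM with tunicamycin, against 62.6, 65.00, 64.1, 61.01 and 59.2 FPKM with Ceapin-A7, a difference of -0.14 ± 0.04 (SE, limma adjusted p = 0.0229), with its changes from vehicle set 2 at -0.02 ± 0.04 with tunicamycin and 0.12 ± 0.04 with Ceapin-A7. The largest differences were those of Sec61a1, 0.64 ± 0.12 (SE, limma adjusted p = 0.00142), and Ssr3, 0.61 ± 0.13 (SE, limma adjusted p = 0.00332). In all 5 tunicamycin libraries 13 genes were higher than in all 5 Ceapin-A7 libraries, as were 6.73% of all genes, and 1, Emc8, was lower, as were 2.74%. Fitted to these 2 groups alone 4 genes passed, Sec61b, Ssr2, Srpr and Spcs3, and in the table family alone 11 passed. Of 21 alternatives, 15 ended the call of Sec11a, 7 that of Srp54a, 5 that of Get3, and 4 each those of Emc8 and Spcs2. The calls of Get3 and Emc8 ended without tunicamycin library 2 or Ceapin-A7 library 2, and that of Get3 also without Ceapin-A7 library 3. Spcs2 and Srp54a lost theirs without Ceapin-A7 library 1 or 2, and Srp54a also without tunicamycin library 1 or 2.

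The change with tunicamycin minus that with AA147, each from its own vehicle set, passed for 4 of the 36 genes, all positive, where 0.64% of all tested genes were called in that direction and 1.04% in either. These were Sec11c at 0.64 ± 0.14 (SE, limma adjusted p = 0.0205), Spcs3 at 0.53 ± 0.12 (SE, limma adjusted p = 0.0341), Ssr2 at 0.42 ± 0.10 (SE, limma adjusted p = 0.0459) and Srpr at 0.47 ± 0.12 (SE, limma adjusted p = 0.0483). Sec11c kept its call under 28 of 31 alternatives, Spcs3 under 16, Ssr2 under 9 and Srpr under 6. Without tunicamycin library 3, 13 genes passed, and without library 1, 7 did. For the other 32 genes, 14 of which rose with tunicamycin, a difference between the compounds' changes was not shown. AA147 minus Ceapin-A7, each from its own vehicle set, gave 0 calls among the 36 genes and 0% of all tested genes, with unadjusted p under 0.05 for 4 of the 36 and for 6.72% of all.

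Levels without a compound differed widely along the pathway. In vehicle set 2, mean levels ran from 10.2 ± 0.713 FPKM for Spcs3 to 116 ± 10.6 FPKM for Emc7 (SD, n = 5), with Tram2 below at 0.442 ± 0.151 FPKM. Within the channel, which binds its subunits in equal numbers, Sec61a1 stood at 31.1 ± 2.38 FPKM, Sec61b at 47.8 ± 6.11 FPKM and Sec61g at 52.8 ± 4.27 FPKM. Sec61g stood above Sec61b in each of the 5 libraries of vehicle set 2. The order was the reverse in vehicle set 1, with Sec61b at 41.6 to 54.7 FPKM and Sec61g at 31.9 to 33.6 FPKM. Sec61a2 reached 21.6 ± 0.705 FPKM in the same libraries. TRAP ranged from 29.8 ± 1.29 FPKM for Ssr1 to 96.1 ± 5.98 FPKM for Ssr2. The vehicle sets, whose tables list different genes, differed as well: the mean of vehicle set 2 over that of vehicle set 1 ran from 0.74 for Emc1 to 1.59 for Sec61g, with 16 of the 36 genes wholly above and 3 (Srp68, Emc1 and Get3) wholly below, against 19.1% and 14.4% of all tested genes. Apart from this description and the alternatives with the other vehicle set, levels were therefore not compared across the table families.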

How the data were processed

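The authors deposited FPKM, fragments per kilobase of transcript scaled by library size, rounded to 2 decimals, with a table for each group. HISAT2 2.0.4, RSEM 1.2.18, DESeq2 1.4.5 and GRCm39 appear in the submitters' processing notes, without role or order. FPKM holds no counts, so no count test was run. All 25 columns were matched to samples by name. Values were tested as log2(FPKM + 1), which understates changes of low genes, for genes at 1 FPKM or more in 5 or more libraries, in 1 model of 5 groups (limma 3.58.1, R 4.3.3, intensity trend, two-sided, Benjamini-Hochberg over all genes, called under 0.05). The procedure was tested on simulated data. Alternatives changed the pseudocount, filter, scaling, variance trend, weights, samples in the fit, vehicle set, replicate block, a Y-linked covariate and the libraries left out. Pairs of related genes are described by their difference, without a test, since they were chosen with results known. Levels per library are given for genes called with tunicamycin (up to 3 per gene group by size of change), the pairs Sec61a1/Sec61a2 and Sec11a/Sec11c, and the genes of largest change where none was called; other genes so shown were chosen after their values were seen. Members and lists were chosen with earlier results of these data known. Depth was estimated from steps between the low levels of 1636 genes with a single transcript, taking 250 bases of each as unable to start a fragment. Python 3.11.15, numpy 2.4.6, pandas 2.3.3, scipy 1.17.1 and matplotlib 3.10.9 were used.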

Additional observations from a re-analysis of the deposited data

Results flagged for a closer look

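Within each group of 5 libraries, 1 library stood far from the other 4 in 13 of 185 combinations of gene and group, where chance gives about 5%, or 9.25. Tunicamycin library 1 was the highest for 5 of them, all genes that rose: Srp9 at 65.7 FPKM, Srp54a at 30.3, Srp68 at 56.2, Srp72 at 55.6 and Spcs2 at 80.6. Library 2 of vehicle set 1 accounted for 4, with Srprb lowest at 28.9 FPKM and Spcs1, Sec11c and Emc2 highest at 67.2, 42.5 and 26.6 FPKM. In vehicle set 2, Sec61g was highest in library 2 at 60.4 FPKM. In the Ceapin-A7 group, Sec62 was highest in library 3 at 54.5 FPKM, the library of lowest estimated depth (15.3 M fragments), and Emc6 was lowest in library 1 at 32.3 FPKM. Emc2 was lowest in AA147 library 5, at 19.5 FPKM.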

How the results depend on the processing

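All 18 genes that rose with tunicamycin kept a positive change under each of 24 alternatives. Leaving out single libraries gave 16 to 18 of the 36 genes, and 607 to 1983 of all genes, the lowest without tunicamycin library 1 and the highest without library 3. With a replicate block 17 genes and 1115 of all genes passed, against 18 and 1141. Same-numbered libraries correlated at -0.43 to 0.47, over 0.1 in 9 of 20 pairs, which does not settle whether the numbers pair them. Fitted to the compared groups only, the counts with tunicamycin were 1 and 86, in the table family only 389 of all genes, and with the Y-linked covariate 442. Median-ratio scaling called 579 genes higher and 569 lower, and quantile normalization 567 and 572, against 773 and 368; both called 17 of the 36 higher and Emc8 lower. Tests against the vehicle set of the other table family, or both sets, mix differences between tables with those of treatment: tunicamycin gave 29 and 28 of the 36 and 7381 and 5743 of all genes, Ceapin-A7 23 and 18, and 6676 and 4384, and AA147 22 and 11, and 6016 and 2948. Against the other set the direction turned for Sec61a2 (0.23) and Emc10 (0.31) with tunicamycin, for Srp9 with AA147 (-0.18) and for Sec61a1 over Sec61a2 with Ceapin-A7 (-0.31), and for Emc1 with tunicamycin against the other set (-0.37) and both (-0.17). The paralog shifts with tunicamycin were then 0.29 and 0.16. Leaving out single libraries gave 0 to 19 genes for Ceapin-A7, 0 to 1 for AA147 and for AA147 minus Ceapin-A7, and the Y-linked covariate 1 for AA147. Tunicamycin against Ceapin-A7 gave 4 of the 36 and 613 of all genes in the compared groups only, 11 and 703 in the table family only, and 923 to 2871 of all genes with single libraries left out. For tunicamycin minus AA147, the 4 genes became 1 with no filter, 2 with a minimum of 5 FPKM, median-ratio scaling, quantile normalization or no trend, 13 with array weights, 0 with the compared groups only, without vehicle set 2 libraries 4 and 5 or with the Y-linked covariate, and 1 to 13 with single libraries left out; all genes called were 70 with a minimum of 5 FPKM, 427 with array weights, 77 with the compared groups only, 61 with the Y-linked covariate and 89 to 634 with single libraries left out. The causes were not tested.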
